A study of Homo sapiens with 18 samples.

Results

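CYP24A1, the enzyme that inactivates the active form of vitamin D, was followed across all 18 libraries together with VDR, RXRA, RXRB and CYP27B1, the receptor genes and the activating enzyme of the same hormone. These 5 genes were found by their symbols among the 63677 genes of the count table, and all 5 were among the 15576 genes with enough counts to be tested. CYP24A1 was chosen on its own readout, since it had the most negative mean log2 fold change over the 4 TBX contrasts among the 193 genes called lower in all 4. That mean was -1.23, and the next genes on the same list were INSIG1 at -0.93 and SCD at -0.90. Its levels against the controls are therefore given as a description with no test, while the other 4 genes were named for their role in the pathway.

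The cells were NCI-H1299, a human lung cancer line labelled lung adenocarcinoma and used at passage 12 to 14 in low glucose DMEM with serum. Each of 4 T-box transcription factors was overexpressed transiently with a lipid reagent, from plasmids for human Flag-tagged TBX2 and TBX4 and for human HA-tagged TBX3 and mouse HA-tagged Tbx5. The transfection reached a part of the cells, so each library mixes cells with and without the plasmid. Every plasmid had 3 libraries, as did the empty vector (EV) and the control cells labelled Ctl, whose treatment the study's methods do not name, and the 3 EV and 3 Ctl libraries together formed the 6 controls. One library, called TBX4 replicate c here, carries the number of the TBX4 group in its label but ends in TBX5, and it held 85197 counts of TBX4 and 1 count of TBX5. TBX4 values are given with and without it where it bears on them. In these bulk samples a lower level can come from fewer cells that express a gene or from less RNA in each cell, and the counts cannot tell these apart.

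The active hormone, calcitriol, is made when CYP27B1 hydroxylates the circulating precursor, and it is broken down when CYP24A1 hydroxylates its side chain. Calcitriol binds VDR, a nuclear receptor that pairs with a retinoid X receptor such as RXRA or RXRB and binds DNA at a pair of short sites. CYP24A1 is itself the best known gene that the pair switches on, so the hormone raises its own breakdown, and the enzyme is often raised in lung cancers.

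RefSeq promoter windows of 300 bases (build GRCh38.p14) were at hand for RXRA and RXRB among the 5 genes. They are shown with that of DHCR7, an enzyme of the wider pathway described below, because the factors under study bind DNA at T-box sites. Capitals mark the letters AGGTGT, the core of a T-box site, and AGGTCA, the unit of nuclear receptor sites, read on both strands, so a match on the other strand appears as ACACCT or TGACCT. Each of the 3 genes has 2 windows, of which the one with more matches, or the first listed, is given.
RXRA (chr9:134379045-134379344, plus strand): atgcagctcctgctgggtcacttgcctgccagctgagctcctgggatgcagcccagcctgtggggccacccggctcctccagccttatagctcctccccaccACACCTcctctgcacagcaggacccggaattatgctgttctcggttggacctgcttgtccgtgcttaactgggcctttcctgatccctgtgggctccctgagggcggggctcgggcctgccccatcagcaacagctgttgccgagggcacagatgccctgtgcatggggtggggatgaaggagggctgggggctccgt
RXRB (chr6:33200804-33201103, minus strand): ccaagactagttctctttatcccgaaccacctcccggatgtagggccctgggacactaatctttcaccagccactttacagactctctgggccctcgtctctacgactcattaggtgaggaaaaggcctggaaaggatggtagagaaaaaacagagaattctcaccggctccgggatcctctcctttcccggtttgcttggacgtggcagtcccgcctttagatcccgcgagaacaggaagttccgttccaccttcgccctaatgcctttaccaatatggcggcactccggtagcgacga
DHCR7 (chr11:71448994-71449293, minus strand): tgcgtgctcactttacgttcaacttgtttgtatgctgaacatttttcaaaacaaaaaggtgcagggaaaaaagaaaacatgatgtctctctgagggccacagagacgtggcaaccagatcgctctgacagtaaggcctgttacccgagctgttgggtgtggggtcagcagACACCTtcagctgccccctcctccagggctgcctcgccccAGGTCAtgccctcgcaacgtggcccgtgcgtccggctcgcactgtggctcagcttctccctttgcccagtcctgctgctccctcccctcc
The RXRA window held 1 match to AGGTGT, at bases 103 to 108 from its 5′ end on the other strand. The DHCR7 window held 1 match to AGGTGT at bases 171 to 176 on the other strand and 1 match to AGGTCA at bases 211 to 216, and the RXRB window held none of these letters. Among all 35116 windows of that length, 11.4% held AGGTGT and 13.8% held AGGTCA, so a match is common and describes the letters alone. The windows shown were picked for more matches where the windows of a gene differed. A match in them is therefore likelier than these shares state.

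The libraries held 7365221 to 11743179 counts. A single gene without a symbol, ENSG00000266658, took 10.7% to 53.5% of them, with 12.4% to 40.2% in the controls, 19.6% to 40.5% for TBX2, 10.7% to 47.4% for TBX3, 13.2% to 18.6% for TBX4 and 22.5% to 53.5% for TBX5. Levels are CPM, each count taken relative to a library size adjusted by TMM, a scaling that limits the pull of such a gene. None of 8 markers of the lung adenocarcinoma lineage had enough counts to be tested, and SFTPA2, SFTPD and SLC34A2 were at 0 in every library, with summed levels of 0.343 to 1.38 CPM. The epithelial keratins KRT8 and KRT18 were present, EPCAM, CDH1 and KRT19 had at most 3 counts, and the mesenchymal filament VIM stood at 692 to 970 CPM. Blood, endothelial and fibroblast markers summed to at most 1.96, 0.804 and 1.62 CPM.

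CYP24A1 (ENSG00000019186) lies on the minus strand of chromosome 20 at chr20:52769985-52790525 (GRCh37), and its exons cover 3988 bases that no other annotated gene shares. Its counts were small. The controls held 38, 37 and 36 counts in Ctl replicates a, b and c and 27, 47 and 56 in EV replicates a, b and c. The TBX libraries held 14, 9 and 5 counts for TBX2, 22, 14 and 26 for TBX3, 22, 24 and 16 for TBX4, and 9, 9 and 10 for TBX5. Each of the 12 TBX libraries thus rested on fewer counts than any control library.

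Scaled for library size, the control levels were 3.73, 3.28 and 3.57 CPM in Ctl and 3.08, 5.04 and 3.57 CPM in EV, a mean of 3.71 ± 0.692 CPM (SD, n = 6). With TBX2 the levels were 1.61, 0.906 and 0.812 CPM, a mean of 1.11 ± 0.435 CPM (SD, n = 3). With TBX3 they were 2.88, 2.11 and 1.83 CPM, a mean of 2.27 ± 0.546 CPM (SD, n = 3). TBX2 libraries were the lowest as a group and TBX3 libraries the highest of the 4 TBX groups, and the TBX3 value nearest the controls came from replicate a. With TBX4 the levels were 1.76, 1.87 and 1.48 CPM, a mean of 1.70 ± 0.200 CPM (SD, n = 3). With TBX5 they were 0.999, 1.79 and 1.86 CPM, a mean of 1.55 ± 0.478 CPM (SD, n = 3). The spread within the TBX5 group came from replicate a, and the groups with TBX4 and TBX5 overlapped.

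**Figure D1:**
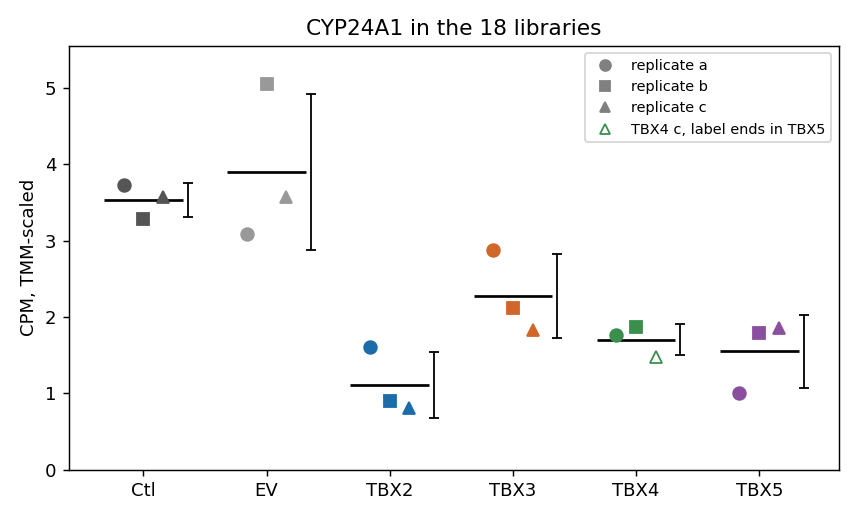
CYP24A1 level in each library, in TMM-scaled CPM on a linear axis from 0, by group; symbols are the replicate letters, lines are group means and bars are 1 SD (n = 3), and the open triangle is TBX4 replicate c. The 12 TBX libraries sit between 0.812 and 2.88 CPM, below the lowest control at 3.08 CPM.

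Against the 6 controls the fitted log2 fold change of CYP24A1 was -1.70 (SE 0.26) for TBX2, -0.75 (SE 0.21) for TBX3, -1.11 (SE 0.20) for TBX4 and -1.35 (SE 0.27) for TBX5. These correspond to levels 3.25-fold, 1.68-fold, 2.16-fold and 2.54-fold lower. All 3 libraries of each TBX group lay below all 6 controls. The same separation held for 11.6% of all tested genes for TBX2, 6.14% for TBX3, 5.74% for TBX4 and 6.55% for TBX5, and for all 12 TBX libraries at once for 0.957% of them. Since CYP24A1 was picked for this contrast, nothing is read from these shares. Leaving out TBX2 replicate a gave -2.07, leaving out TBX5 replicate a gave -1.01, and leaving out TBX4 replicate c gave -1.02. Leaving out EV replicate b, the highest control, gave -1.61, -0.66, -1.01 and -1.25 for the 4 groups in turn.

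The comparison of the 2 kinds of control played no part in the choice of CYP24A1. EV and Ctl libraries differed by a log2 fold change of 0.13 (SE 0.20, 95% interval -0.28 to 0.55, adjusted p = 0.887), in a contrast where 0.385% of genes were called at the 10% false-discovery rate used throughout. This and all adjusted p-values come from the quasi-likelihood test of edgeR with Benjamini-Hochberg adjustment over all 15576 genes. The sign rested on EV replicate b, without which the change was -0.05. The number of genes called in this contrast was 60, and it moved to 230 without Ctl replicate c, 22 without Ctl replicate b, and 29, 38 and 30 without EV replicates a, b and c. EV libraries ranged from 3.08 to 5.04 CPM and so covered the whole range of Ctl.

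The TBX libraries also entered the choice of CYP24A1. Its differences between TBX groups are therefore a description, and their adjusted p-values give no independent support. Between the TBX groups, CYP24A1 was lower with TBX2 than with TBX3, with a log2 fold change of -0.95 (SE 0.33, 95% interval -1.62 to -0.28, adjusted p = 0.0595), where 15.5% of all genes were called. The TBX2 libraries reached up to 1.61 CPM and the TBX3 libraries began at 1.83 CPM. The share of all genes parted in this way was not computed, so nothing is read from it. The call was lost without TBX2 replicate b (adjusted p = 0.216), TBX2 replicate c (adjusted p = 0.159) or TBX3 replicate a (adjusted p = 0.210). The other 5 pairs did not pass. TBX2 against TBX4 gave -0.60 (95% interval -1.27 to 0.08, adjusted p = 0.296) and TBX2 against TBX5 gave -0.36 (95% interval -1.16 to 0.44, adjusted p = 0.670), with 12.3% and 12.1% of all genes called. TBX3 against TBX4 gave 0.35 (95% interval -0.21 to 0.91, adjusted p = 0.514) and TBX3 against TBX5 gave 0.59 (95% interval -0.09 to 1.27, adjusted p = 0.367), with 9.97% and 7.41% called. TBX4 against TBX5, where 0.539% of genes were called, gave 0.24 (95% interval -0.44 to 0.92, adjusted p = 0.902). The calls between TBX4 and TBX5 numbered 84 and fell to between 17, without TBX5 replicate c, and 39, without TBX4 replicate c, when any of TBX4 replicates a, b or c or TBX5 replicates b or c was left out. Those between TBX2 and TBX4 fell from 1911 to between 1180 and 1238 without TBX2 replicate c or TBX4 replicate a or b, and those between TBX3 and TBX4 from 1553 to between 857 and 1000 without TBX3 replicate a or b or TBX4 replicate a or b. In the order TBX2, TBX5, TBX4 and TBX3, no neighbours differed beyond their spread, and the intervals of these neighbours reached -1.16, 0.92 and 0.91.

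**Figure D2:**
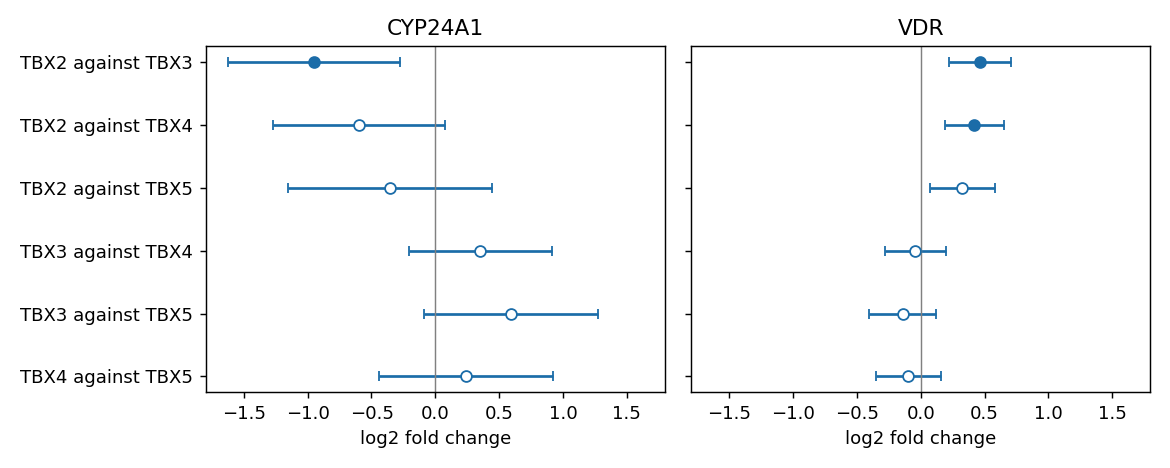
Log2 fold changes between TBX groups for CYP24A1 and VDR from 1 edgeR fit of the 18 libraries, with 95% intervals; filled points have an adjusted p under 0.1. CYP24A1 passed between TBX2 and TBX3 at -0.95, a description since the gene was chosen on these libraries. VDR passed in the opposite direction for TBX2 against TBX3 at 0.46 and against TBX4 at 0.42.

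VDR (ENSG00000111424; chr12:48235320-48336831, minus strand, GRCh37) encodes the receptor itself. The control levels were 18.04, 15.9 and 20.9 CPM in Ctl and 19.1, 19.5 and 20.7 CPM in EV, a mean of 19.0 ± 1.87 CPM (SD, n = 6). With TBX2 the levels were 22.7, 23.9 and 16.2 CPM, with TBX3 they were 14.3, 16.3 and 15.8 CPM, with TBX4 they were 15.9, 16.1 and 15.9 CPM, and with TBX5 they were 16.8, 18.9 and 15.8 CPM. Replicates a and b with TBX2 lay above all controls and replicate c near the lowest one. The 3 other TBX groups lay below the control mean in all 9 libraries, yet each overlapped the control range, whose lowest library was Ctl replicate b.

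VDR fell with TBX3, with a log2 fold change of -0.30 (SE 0.10, adjusted p = 0.0454), and with TBX4, with -0.26 (SE 0.09, adjusted p = 0.0617). The changes were 0.17 (SE 0.11, adjusted p = 0.281) with TBX2 and -0.16 (SE 0.10, adjusted p = 0.386) with TBX5, neither of which passed. The shares of all tested genes called were 32.6% for TBX2, 14.9% for TBX3, 13.0% for TBX4 and 12.7% for TBX5. With TBX4 these were 2031 genes, against 1235 without TBX4 replicate a and 1223 without TBX4 replicate b. With TBX5 they were 1975 genes, against 1239 without TBX5 replicate b and 1067 without TBX5 replicate c. The call with TBX3 was lost without TBX3 replicate a (adjusted p = 0.186), and it was lost against the Ctl libraries alone (adjusted p = 0.229). The call with TBX4 was lost without any one of TBX4 replicates a, b or c, Ctl replicate c or EV replicate c (adjusted p up to 0.174), and with DESeq2 (adjusted p = 0.136). It was also lost when the share of ENSG00000266658 entered as a covariate, where the change was -0.31 with a larger SE of 0.11 (adjusted p = 0.124). Without TBX2 replicate c the change with TBX2 was 0.30 and passed (adjusted p = 0.0401), so this library decided that call.

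Between TBX groups VDR was higher with TBX2 than with TBX3 by 0.46 (SE 0.12, adjusted p = 0.0095) and than with TBX4 by 0.42 (SE 0.11, adjusted p = 0.0183). The difference from TBX5 was 0.32 (95% interval 0.07 to 0.58, adjusted p = 0.111) and passed without TBX2 replicate c (adjusted p = 0.0139). The call against TBX4 was lost without TBX2 replicate b (adjusted p = 0.129). TBX3, TBX4 and TBX5 differed from each other by -0.14 to -0.04, with none passing and a lowest adjusted p of 0.649. For the pair TBX2 and TBX3 the receptor gene and the CYP24A1 gene thus differed in opposite directions, VDR being higher and CYP24A1 lower with TBX2. The CYP24A1 side is a description, since that gene was chosen on these libraries. EV against Ctl gave 0.12 for VDR (95% interval -0.08 to 0.33, adjusted p = 0.740).

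RXRA (ENSG00000186350; chr9:137208944-137332431, plus strand, GRCh37) encodes one of the receptors that pair with VDR. Its control levels ran from 4.61 to 7.81 CPM with a median of 5.44 CPM. The levels were 4.48, 5.43 and 5.36 CPM for TBX2, 6.42, 6.94 and 6.89 CPM for TBX3, 5.13, 5.92 and 6.76 CPM for TBX4, and 4.99, 6.94 and 7.82 CPM for TBX5. All 4 groups overlapped the controls. The log2 fold changes were -0.19 (95% interval -0.54 to 0.17) for TBX2, 0.23 (95% interval -0.08 to 0.54) for TBX3, 0.03 (95% interval -0.28 to 0.33) for TBX4 and 0.13 (95% interval -0.25 to 0.51) for TBX5. None passed, and the lowest adjusted p was 0.384, with TBX3. The largest difference between TBX groups was -0.41 for TBX2 against TBX3 (95% interval -0.80 to -0.03, adjusted p = 0.170).

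RXRB (ENSG00000204231; chr6:33161365-33168442, minus strand, GRCh37) encodes another such partner. Of its exon bases 9.26% are shared with SLC39A7 on the opposite strand. The counting is not stated to use strand, so reads there cannot be assigned to 1 of the 2 genes. Its control levels ran from 13.5 to 14.8 CPM with a median of 14.4 CPM, the smallest spread of the 5 genes relative to the level. The TBX levels were 17.7, 14.6 and 12.3 CPM for TBX2, 13.9, 11.0 and 14.7 CPM for TBX3, 13.6, 11.1 and 13.1 CPM for TBX4, and 16.2, 11.7 and 18.6 CPM for TBX5. The spread was wider in the TBX libraries, with an SD of 2.46 CPM over 12 libraries against 0.543 CPM over the 6 controls, and libraries lay on both sides of the control range. The log2 fold changes were 0.08 (95% interval -0.13 to 0.30), -0.07 (95% interval -0.27 to 0.13), -0.18 (95% interval -0.36 to 0.01) and 0.14 (95% interval -0.09 to 0.37) for TBX2 to TBX5. None passed, with a lowest adjusted p of 0.245 for TBX4, and none passed between TBX groups.

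CYP27B1 (ENSG00000111012; chr12:58156117-58162769, minus strand, GRCh37) encodes the activating enzyme, the counterpart of CYP24A1, and 3.26% of its exon bases are shared with METTL1. It was counted about as sparsely as CYP24A1, with 6 to 28 reads per library. The control levels were 1.37, 2.22 and 1.59 CPM in Ctl and 1.60, 1.61 and 1.79 CPM in EV. The TBX levels were 1.95, 1.91 and 1.30 CPM for TBX2, 2.23, 1.36 and 1.55 CPM for TBX3, 1.68, 1.87 and 1.20 CPM for TBX4, and 1.22, 1.19 and 1.67 CPM for TBX5. The 3 TBX5 libraries all lay below the control mean of 1.70 CPM, and each of the 4 TBX groups overlapped the range of the controls. The log2 fold changes were 0.05 (95% interval -0.47 to 0.56), -0.02 (95% interval -0.53 to 0.49), -0.10 (95% interval -0.58 to 0.38) and -0.35 (95% interval -0.95 to 0.24) for TBX2 to TBX5. None passed, the lowest adjusted p being 0.518 with TBX5, and at this depth a change of the size fitted for VDR would lie within these intervals.

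**Figure D3:**
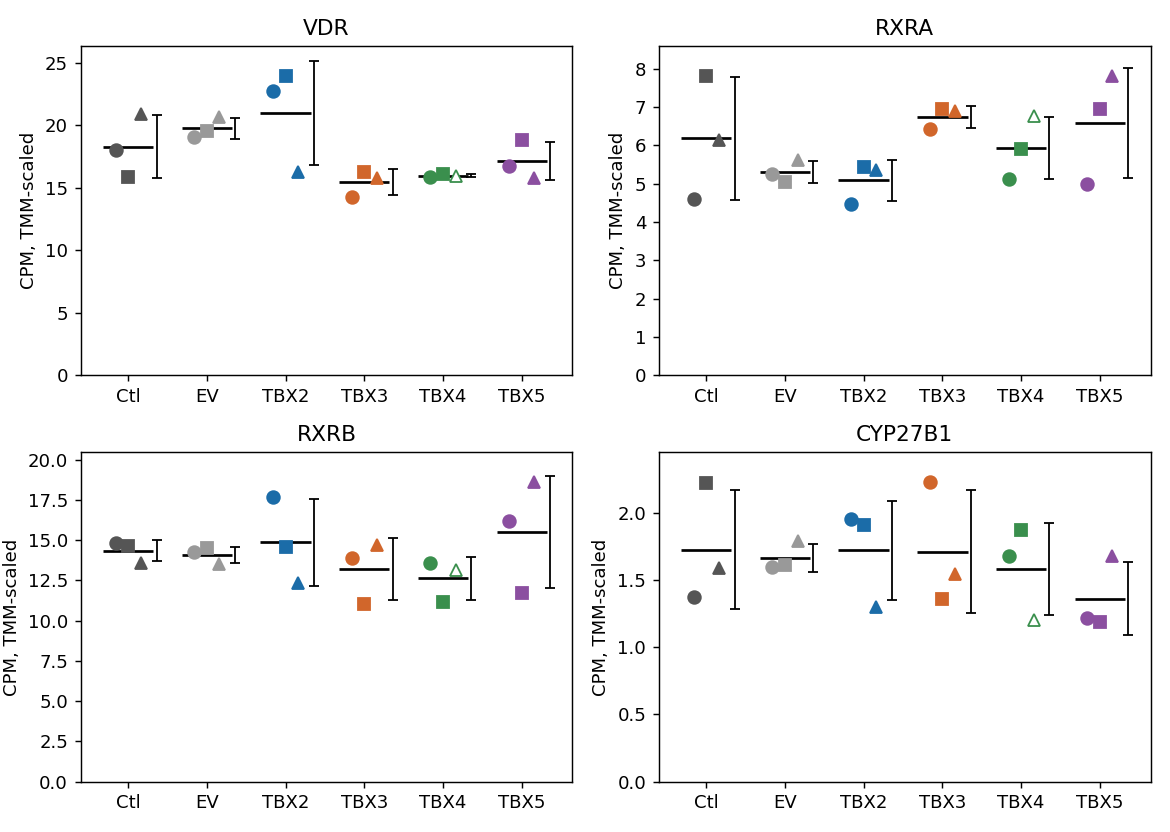
Levels of VDR, RXRA, RXRB and CYP27B1 in each library, in TMM-scaled CPM on linear axes from 0; circles, squares and triangles are replicates a, b and c, lines are group means and bars are 1 SD (n = 3), and the open triangle is TBX4 replicate c. Every TBX group overlaps the controls for all 4 genes, with VDR at 14.3 to 23.9 CPM in the TBX libraries and 15.9 to 20.9 CPM in the controls.

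**Figure D4:**
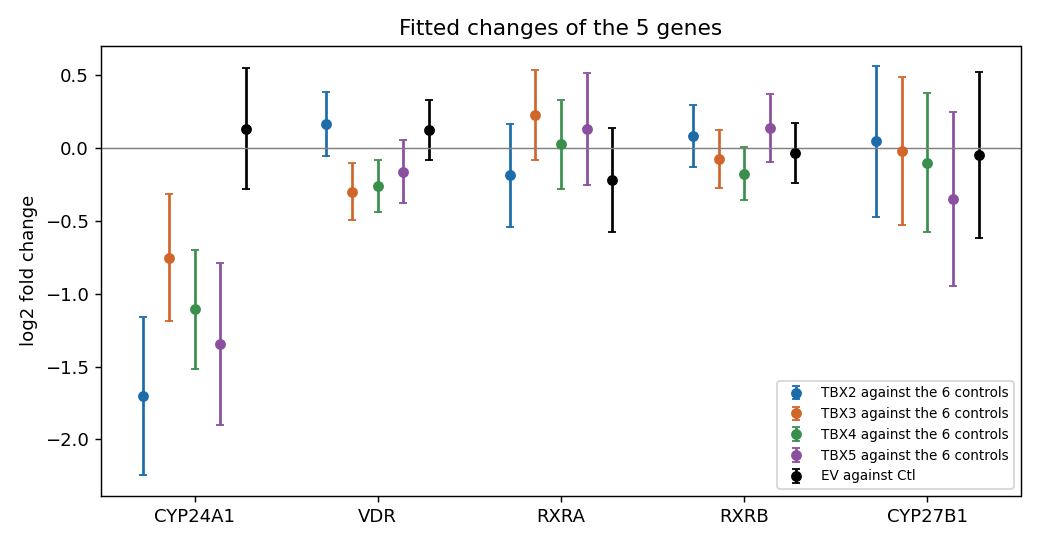
Fitted log2 fold changes of the 5 genes against the 6 controls and for EV against Ctl, with 95% intervals from edgeR. The CYP24A1 points run from -1.70 to -0.75 and are a description, since the gene was chosen on them, while the other genes stay between -0.35 and 0.23.

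Compared per kilobase of exon in the 6 controls, the 5 genes fell into 3 tiers. RXRB stood at 3.65 and VDR at 3.35 CPM per kilobase, above 62.4% and 60.0% of the tested genes with a known length. Their ranges overlapped, and 4 of 6 control libraries had them in this order. CYP24A1 followed at 0.931 CPM per kilobase, above 27.1% of genes, and was separated from both neighbours in all 6 libraries. CYP27B1 at 0.516 and RXRA at 0.476 CPM per kilobase came last, above 16.6% and 15.2% of genes, with overlapping ranges. RXRA, with 12077 bases of exon, ranks lower per length than by CPM. The lengths came from a later annotation than the one the reads were counted on, so the tiers hold for these lengths only.

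Among 8 genes that make and carry vitamin D, 3 had enough counts to be tested. DHCR7, which turns the precursor of vitamin D into cholesterol, was lower in all 4 contrasts, as 1 of the 193 genes called so. The study also listed cholesterol biosynthesis among the pathways lowered by all 4 factors. Its control levels ran from 20.6 to 25.8 CPM with a median of 24.3 CPM. The levels were 17.6, 14.4 and 14.1 CPM for TBX2, 21.4, 20.7 and 18.9 CPM for TBX3, 17.2, 19.6 and 19.6 CPM for TBX4, and 19.2, 14.5 and 17.5 CPM for TBX5. The TBX2, TBX4 and TBX5 libraries all lay below the lowest control, EV replicate a, and the TBX3 libraries overlapped it. Such a separation held for 11.6% of all tested genes for TBX2, 5.74% for TBX4 and 6.55% for TBX5. The log2 fold changes were -0.63 (SE 0.10, adjusted p = 4.26e-05) for TBX2, -0.25 (SE 0.09, adjusted p = 0.0632) for TBX3, -0.35 (SE 0.08, adjusted p = 0.00737) for TBX4 and -0.47 (SE 0.10, adjusted p = 0.00527) for TBX5. The call with TBX3 was lost without TBX3 replicate b or c, Ctl replicate c, or EV replicate b or c (adjusted p up to 0.295). It was also lost against EV alone (adjusted p = 0.108) and against Ctl alone (adjusted p = 0.123), while the other 3 calls held against either. Scaled by library totals, the change was -0.33 with TBX3, -0.092 with TBX4 and -0.76 with TBX5, none of which passed (adjusted p = 0.999, 0.685 and 0.168), and the call with TBX2 held (adjusted p = 0.0486). EV and Ctl did not differ past the threshold (0.01, adjusted p = 0.983). CUBN, an uptake receptor for the vitamin's carrier, was higher with TBX2 by 0.46 (SE 0.18, adjusted p = 0.0627), a call lost without TBX2 replicate a or b, Ctl replicate b, or EV replicate a or b (adjusted p up to 0.212). CYP2R1, which makes the circulating precursor, passed in none of the 4 contrasts.

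Of 30 other genes known to respond to VDR that were found in the table, 13 could be tested. Genes that vitamin D raises and genes that it lowers, such as PTHLH, are both on this list, so its counts have no single direction. With TBX2, 3 were higher and 7 lower, beside 17.0% and 15.6% of all tested genes. With TBX3, 2 were higher and 3 lower, beside 8.47% and 6.4%. With TBX4, 3 were higher and 0 lower, beside 6.97% and 6.07%, and with TBX5, 4 were higher and 1 lower, beside 6.55% and 6.12%. Lower calls outnumbered higher ones with TBX2 and TBX3, by 3 to 2 with TBX3, and higher calls outnumbered lower ones with TBX4 and TBX5. With so few genes, of both kinds, no direction of the pathway is read from this. The median log2 fold changes were -0.17, 0.02, -0.02 and 0.10, while the medians over all tested genes stayed within -0.01 and -0.00.

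PTHLH, a hormone gene that calcitriol represses, was higher with TBX2 by 0.94 (SE 0.24, adjusted p = 0.00559), with TBX4 by 0.78 (SE 0.21, adjusted p = 0.0221) and with TBX5 by 1.12 (SE 0.26, adjusted p = 0.00761). Its EV libraries stood at 1.66 to 2.97 CPM and its Ctl libraries at 1.33 to 1.59 CPM. Against EV alone the change with TBX4 was 0.52 and no longer passed (adjusted p = 0.201). CDKN1A, the cell cycle inhibitor p21, rose with TBX2 by 0.39 (adjusted p = 0.0250), with TBX4 by 0.50 (adjusted p = 0.00827) and with TBX5 by 0.82 (adjusted p = 0.000779). EV exceeded Ctl as well, by 0.53 (SE 0.10, adjusted p = 0.0171), with 16.8 to 18.2 CPM against 11.4 to 13.1 CPM. Against EV alone the change was 0.16 with TBX2 (adjusted p = 0.258) and 0.26 with TBX4 (adjusted p = 0.125), and it still passed with TBX5 at 0.58 (adjusted p = 0.00954). EV against Ctl gave 0.61 for PTHLH and did not pass (adjusted p = 0.523).

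IGFBP3, a carrier of insulin-like growth factors, was called in opposite directions. It fell by 0.69 with TBX2 (SE 0.29, adjusted p = 0.0837) and was higher with TBX5 by 0.94 (SE 0.23, adjusted p = 0.0122). The levels were 0.689, 1.41 and 1.46 CPM with TBX2 and 3.44, 2.78 and 4.84 CPM with TBX5, against 1.51 to 2.38 CPM in the controls. The highest TBX2 library, at 1.46 CPM, was close to the lowest control at 1.51 CPM. For TBX2, 11.6% of all tested genes lay below all 6 controls. TBX2 against TBX5 gave -1.64 (SE 0.32, adjusted p = 0.00113). The call with TBX2 was lost without TBX2 replicate a, Ctl replicate c or EV replicate c (adjusted p up to 0.393), and that with TBX5 without TBX5 replicate c (adjusted p = 0.116). SPP1, osteopontin, fell by 0.77 with TBX2 (adjusted p = 0.0055) and fell by 0.75 with TBX3 (adjusted p = 0.0121), the second lost without TBX3 replicate c (adjusted p = 0.228). DUSP10, a phosphatase of stress kinases, was higher with TBX3 by 0.37 (adjusted p = 0.0546), TBX4 by 0.45 (adjusted p = 0.0129) and TBX5 by 0.50 (adjusted p = 0.0382). Leaving out TBX5 replicate c ended its call with TBX5 (adjusted p = 0.261), and leaving out any TBX3 library, Ctl replicate b or EV replicate c ended that with TBX3 (adjusted p up to 0.158).

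RXR proteins pair with other nuclear receptors too, and 12 of 16 such partners were tested. The numbers higher were 3, 2, 3 and 2 for TBX2 to TBX5, and the numbers lower were 0, 0, 1 and 0, with median changes of 0.20, 0.04, 0.21 and 0.16. The shares of all tested genes were 17.0%, 8.47%, 6.97% and 6.55% higher and 15.6%, 6.4%, 6.07% and 6.12% lower. NR1H4, the bile acid receptor, stood at 7.12, 7.75 and 7.47 CPM with TBX2 and at 1.79 to 2.74 CPM in the controls. Its change was 1.83 with TBX2 (SE 0.16, adjusted p = 1.65e-08) and 0.98 with TBX4 (SE 0.18, adjusted p = 0.000725), and TBX2 exceeded TBX3 by 1.89 (adjusted p = 7.42e-06). NR4A2, an orphan receptor, was higher with TBX3 by 1.21 (adjusted p = 0.00276), with TBX4 by 1.02 (adjusted p = 0.0121) and with TBX5 by 1.01 (adjusted p = 0.0284), at 0.799 to 1.60 CPM in the controls. The call with TBX5 was lost without TBX5 replicate a (adjusted p = 0.122). Its relative NR4A1 was higher with TBX3 by 1.19 (adjusted p = 0.000242) and the oxysterol receptor NR1H3 with TBX2 by 0.90 (adjusted p = 0.000547). PPARG, the fatty acid receptor of fat cells, was higher with TBX2 by 0.66 (adjusted p = 0.0120) and with TBX4 by 0.51 (adjusted p = 0.0562). Its call with TBX2 was lost without TBX2 replicate a (adjusted p = 0.113) and that with TBX4 without TBX4 replicate b or c or Ctl replicate b (adjusted p up to 0.321).

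All 17 cofactors through which VDR and its partners act were tested. The numbers higher were 3, 6, 0 and 0 for TBX2 to TBX5 and the numbers lower were 2, 0, 3 and 1. Among all tested genes 17.0%, 8.47%, 6.97% and 6.55% were higher and 15.6%, 6.4%, 6.07% and 6.12% lower, so the counts with TBX2 lay near the share of all genes. The acetyltransferase CREBBP was higher with TBX3 by 0.32 (adjusted p = 0.0179), a call lost without TBX3 replicate a (adjusted p = 0.140), and the coactivator NCOA1 was higher with TBX2 by 0.21 (adjusted p = 0.0507) and with TBX3 by 0.20 (adjusted p = 0.0907). NCOA1 lost the first call without TBX2 replicate c or EV replicate c (adjusted p up to 0.251) and the second without TBX3 replicate a or c, Ctl replicate a or any EV library (adjusted p up to 0.382). The remodelling ATPase SMARCA4 was higher with TBX2 by 0.34 (adjusted p = 0.00435), and the coactivator PPARGC1A fell by 0.52 with TBX4 (adjusted p = 0.0123). TBL1XR1, a subunit of the corepressor complex, was higher with TBX3 by 0.26 (adjusted p = 0.00264) and fell by 0.17 with TBX5 (adjusted p = 0.0732), and TBX3 exceeded TBX5 by 0.43 (SE 0.06, adjusted p = 8.54e-05). The TBX5 call was lost without any TBX5 library or Ctl replicate a or b (adjusted p up to 0.219).

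CYP24A1 works in mitochondria with electrons passed on by FDXR and FDX1. Of 7 genes on a list of mitochondrial P450 enzymes and electron partners, which also holds POR, 4 were tested. With TBX2, 1 was lower, POR itself, beside 15.6% of all tested genes, and with TBX4, 2 were higher, beside 6.97%. FDXR was higher with TBX4 by 0.45 (SE 0.15, adjusted p = 0.0557) and CYP27C1, a P450 acting on retinoids, by 0.41 (SE 0.15, adjusted p = 0.0851). POR, which serves the P450 enzymes outside mitochondria, fell by 0.22 with TBX2 (SE 0.09, adjusted p = 0.0701). Each of these 3 calls was lost without some library: FDXR without TBX4 replicate b or c or EV replicate a or b (adjusted p up to 0.225), CYP27C1 without TBX4 replicate b or c, Ctl replicate c, or EV replicate a or b (adjusted p up to 0.341), and POR without TBX2 replicate c, Ctl replicate c or EV replicate b (adjusted p up to 0.397). FDX1 passed in none of the 4 contrasts.

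**Figure D5:**
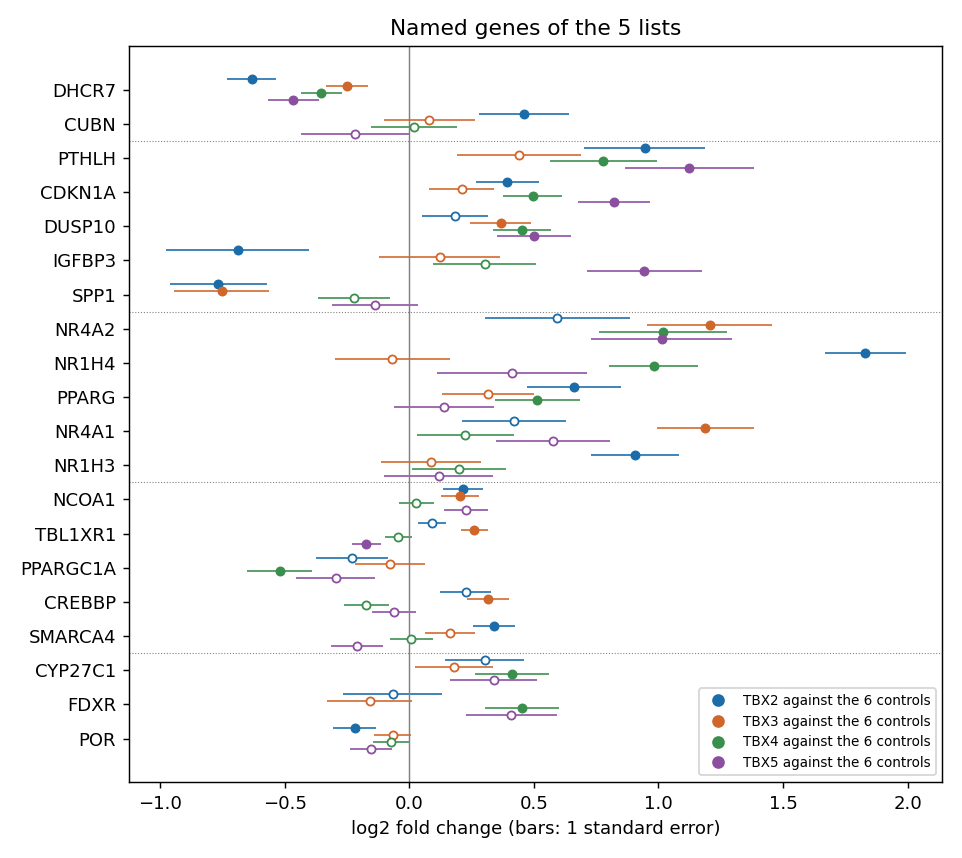
Log2 fold changes of the named genes of the 5 lists in the 4 contrasts, with bars of 1 standard error; filled points have an adjusted p under 0.1 by edgeR, and dotted lines part vitamin D making, VDR response, RXR partners, cofactors and P450 partners from top to bottom. DHCR7 is filled and negative in all 4 contrasts, and NR1H4 with TBX2 is the farthest point at 1.83.

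The genes around CYP24A1 were examined within 1 Mb on GRCh37. Of 21 annotated genes, 5 were protein-coding and 2 of these could be tested. PFDN4, a chaperone subunit that starts 34.1 kb to the right, was higher with TBX2 by 0.25 (adjusted p = 0.0293), a call lost without TBX2 replicate b or c (adjusted p up to 0.143), and gave 0.04 to 0.16 in the other 3 contrasts. ZNF217, a zinc finger factor 543.5 kb to the left, was higher with TBX3 by 0.29 (adjusted p = 0.0029) and with TBX5 by 0.21 (adjusted p = 0.0473). The TBX5 call was lost without TBX5 replicate a or c (adjusted p up to 0.208) and turned to -0.08 when libraries were scaled by their totals. The fitted change of both genes was positive in all 4 contrasts, opposite to CYP24A1. The other 3, BCAS1, DOK5 and TSHZ2, had at most 8, 1 and 7 counts in any library.

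Over the 18 libraries, the genes whose log2 CPM moved most like CYP24A1, among 14043 genes with a mean of at least 1 CPM, were AKT2 (Pearson r = 0.94), TTL (r = 0.93), ITGA3 (r = 0.92), TUBA1A (r = 0.91) and LASP1 (r = 0.91). The genes that ran most against it were IFNGR1 (r = -0.91), RIMOC1 (r = -0.91) and CCDC28A (r = -0.90). These points share their libraries and the difference between control and TBX libraries, so the values are a description. The kinase AKT2 had control levels of 95.4 ± 4.22 CPM (SD, n = 6) and levels of 62.2 ± 6.98, 82.4 ± 4.40, 72.7 ± 4.65 and 77.7 ± 6.17 CPM (SD, n = 3) with TBX2 to TBX5. As for CYP24A1, TBX2 gave the lowest group mean of AKT2 and TBX3 the highest of the 4 TBX groups. The same order at both ends was seen for TTL, ITGA3, TUBA1A and LASP1. IFNGR1, the interferon gamma receptor subunit, ran the other way, with 19.8 ± 1.14 CPM (SD, n = 6) for the controls and 27.3 ± 4.19 CPM (SD, n = 3) for TBX2. All these genes were picked for their correlation with CYP24A1 over the same libraries, so these orders follow largely from the choice.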

How the data were processed

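Per the labels and the study's methods, read pairs were aligned by the authors with STAR 2.3.0 to GRCh37 and counted per gene with default featureCounts. The deposited values are raw counts for 63677 genes in 18 libraries, with no normalization or filter.

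Genes with a count above 5 in 10 or more libraries were tested (15576 genes) with the quasi-likelihood test of edgeR 4.0.16 in R 4.3.3, TMM scaling, Benjamini-Hochberg adjustment and a threshold of 0.1. Each TBX was fitted against the 6 controls, EV against Ctl, and the TBX pairs in 1 fit of all libraries. DESeq2 1.42.0 was an alternative, with the further settings of the closing section. The fits were checked on simulated counts. All simulated libraries had the same gene shares and the changed genes were well counted. Changes in sparse genes and the uneven share of ENSG00000266658 were thus not covered. Levels are TMM-scaled CPM. Exon lengths and positions came from a GENCODE annotation lifted to GRCh37, later than the one the authors counted on. Promoter windows came from RefSeq.

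The 5 genes and all lists were chosen with earlier results of these data known. The genes named were the 5, up to 5 per list called in the most contrasts (ties by mean absolute change), the 5 most and 3 least like CYP24A1, and tested protein-coding neighbours; EFTUD1 and PECAM1 were not matched to a single row. Nothing states that replicates were separate cultures, so p-values measure the spread between these libraries, which may be technical. Same-letter libraries did not deviate together (mean r = 0.00043, range -0.10 to 0.16 over 45 pairs), so letters were not used for pairing.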

Additional observations from a re-analysis of the deposited data

Results flagged for a closer look

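The CYP24A1 level in EV replicate b was 5.045 CPM, the highest of the 6 controls, and it stood apart from them: its gap to the next control was 0.673 of the whole control range, above the Dixon critical value for 6 samples. Chance flags about 1 group in 20, and both ends of the control range were examined for each of the 5 genes, 10 ends in all, with no other flag. Without this library the CYP24A1 changes were -1.61, -0.66, -1.01 and -1.25 for TBX2 to TBX5, and EV against Ctl was -0.05.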

How the results depend on the processing

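Counts per library limit the result: CYP24A1 rested on 5 to 56 counts and CYP27B1 on 6 to 28, so a filter of at least 10 counts in every library left neither with a value. IGFBP3, PTHLH, NR4A2 and NR1H4 were sparse too, with control levels of 0.799 to 2.97 CPM, below those of CYP24A1. The direction of CYP24A1 against the controls held under every other alternative run, with log2 fold changes from -2.07 to -1.53 with TBX2, -0.94 to -0.55 with TBX3, -1.17 to -1.01 with TBX4 and -1.51 to -1.01 with TBX5 as single libraries were left out.

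Scaling by library totals shifted the median of all genes by 0.25 with TBX4, -0.31 with TBX5, 0.20 for EV against Ctl and 0.57 for TBX4 against TBX5. With it CYP24A1 gave -0.85 with TBX4 and -1.66 with TBX5, and VDR gave -0.38 with TBX3 and -0.0015 with TBX4, neither passing. It also gave -0.87 for CYP24A1 in TBX2 against TBX3 and 0.56 and 0.18 for VDR in TBX2 against TBX3 and TBX4, none passing. It turned the sign of values that had not passed: VDR in TBX3 and TBX4 against TBX5 (0.091 and 0.47), RXRA with TBX5 (-0.18), RXRB with TBX4, TBX5 and EV against Ctl (0.085, -0.17 and 0.17) and CYP27B1 with TBX4 and EV against Ctl (0.15 and 0.17). For TBX5 it turned ZNF217 to -0.080, and it ended 46 of the 70 calls of named genes outside the 5. Genes called fell from 5079 to 1056 (833 higher) with TBX2, from 2316 to 35 (35 higher) with TBX3 and from 1975 to 93 (38 higher) with TBX5, and those with TBX4 went from 2031 (1086 higher) to 2789 (2756 higher). For EV against Ctl they fell from 60 to 17. Between TBX groups they went from 2417 to 164, 1911 to 76, 1890 to 419, 1553 to 110, 1154 to 34 and 84 to 6518, in the order of the pairs from TBX2 against TBX3 to TBX4 against TBX5.

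VDR with TBX4 no longer passed with DESeq2 (-0.26), in 1 fit of all libraries (-0.25), against Ctl alone (-0.19) or with a covariate for how much of each library went to ENSG00000266658 (-0.31), an alternative chosen after seeing the data. Against Ctl alone VDR with TBX3 gave -0.24, not passing, and RXRA with TBX4 gave -0.082. The covariate left 800 genes called with TBX4 and 22 for TBX4 against TBX5, and Ctl alone left 1192 called with TBX5. EV against Ctl gave 30 calls with DESeq2 and 129 with no filter, and TBX4 against TBX5 gave 154 with no filter. The cause of these changes was not tested.

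With 1 library left out, VDR ranged from 0.059 to 0.30 with TBX2, -0.35 to -0.25 with TBX3, -0.31 to -0.22 with TBX4, 0.31 to 0.55 in TBX2 against TBX4, 0.22 to 0.45 in TBX2 against TBX5 and -0.071 to 0.0030 in TBX3 against TBX4. CYP24A1 ranged from -0.055 to 0.24 for EV against Ctl, -1.32 to -0.76 for TBX2 against TBX3 and -0.089 to 0.41 for TBX4 against TBX5. RXRA ranged from -0.065 to 0.13 with TBX4 and -0.010 to 0.36 with TBX5. RXRB ranged from -0.057 to 0.18 with TBX2, -0.19 to 0.018 with TBX3 and -0.070 to 0.0019 for EV against Ctl. CYP27B1 ranged from -0.037 to 0.18 with TBX2, -0.21 to 0.082 with TBX3, -0.23 to 0.052 with TBX4 and -0.18 to 0.18 for EV against Ctl. In all, 25 of the 70 other calls were lost without some library.

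The replicate block moved no call of the 5 genes: VDR gave -0.31 with TBX3 (adjusted p = 0.0339) and -0.25 with TBX4 (adjusted p = 0.0930), and CYP24A1 gave -0.99 for TBX2 against TBX3 (adjusted p = 0.0577). It moved the calls for EV against Ctl from 60 to 31. The letters are only a number here, since 6 of 18 libraries correlated best with their own letter.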
